A study of Drosophila melanogaster with 1908 samples.

Results

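Gene expression was compared between Drosophila melanogaster embryos collected 16–20 h and 12–16 h after egg laying, in the 3 experiments that profiled both collection windows. The members were all nuclei that the deposited cell table assigned to either window in experiments 1, 3 and 10, which gave 116824 of the 547805 nuclei of the series. The series followed embryos grown at 25 °C through 11 overlapping windows by single-nucleus RNA sequencing with combinatorial indexing (sci-RNA-seq3), in which transcripts are counted as unique molecular identifiers (UMIs) and the window is read from the well of the first indexing step. Of the 79685 nuclei at 16–20 h, 18779 came from experiment 1, 3916 from experiment 3 and 56990 from experiment 10, against 25955, 6773 and 4411 of the 37139 nuclei at 12–16 h. All groups were wild-type flies of the Canton S strain with no transgene or drug named, and each nucleus came from a pool of whole embryos. UMIs were summed over all nuclei of one window in one experiment, and the 6 sums were compared in 3 pairs, each pair being one experiment. Whether the 3 experiments used separate embryo collections was not stated, so p-values measure the spread between these experiments, which may be technical.

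These windows cover the end of embryogenesis. Epidermal and tracheal cells then secrete the larval cuticle, an outer envelope over a layer of chitin fibres bound by large families of secreted proteins, and the cuticle is hardened and darkened by products of tyrosine and dopamine. At the same time the body wall muscles complete their sarcomeres and begin to contract, synapses mature, the midgut takes its larval form, and the larva hatches.

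The 6 sums differed in size and in quality. They held 8920030, 1944561 and 36032867 UMIs at 16–20 h in experiments 1, 3 and 10, against 10528933, 3053752 and 1861697 UMIs at 12–16 h, and every triplet of values below is given in this order of experiments. A nucleus of experiment 10 had on average 632.3 UMIs at 16–20 h, and between 405.7 and 496.6 UMIs in the other 5 sums, while the median was higher at 16–20 h by 9, 7 and 61 UMIs. The 16–20 h nuclei of experiment 10 stood apart: ribosomal protein genes took a median of 8.37% of their UMIs, against 3.64% in the 12–16 h nuclei of that experiment, while the other 4 medians lay between 0.485% and 2.48%. The age that the authors inferred from expression placed the median nucleus at 16.1, 15.7 and 17.7 h in the 16–20 h collections, against 13.6, 13.8 and 13.9 h in the 12–16 h collections. It fell inside the collection window for 52%, 42.6% and 94.2% of the 16–20 h nuclei, against 92.5%, 90.3% and 86.7% of the 12–16 h nuclei. An exact two-sided sign-flip test over the 3 pairs cannot give a p below 0.25, and it gave 0.25 for the median UMIs, the ribosomal share and the inferred age. The part of these differences in the results was not tested beyond the values given beside them.

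More genes passed the test as higher than as lower at 16–20 h, by a margin that depended on the fit. Of the 10231 genes with enough counts to test, 1.46% were higher and 13 (0.127%) lower at 16–20 h at an adjusted p under 0.05, 1.58% in either direction, by edgeR's quasi-likelihood test on the paired sums with Benjamini-Hochberg adjustment over all genes tested. DESeq2 called 2.41% higher and 0.929% lower, and at an unadjusted p under 0.05 in edgeR 8.81% were higher and 6.69% lower. The median log2 fold change, 16–20 h over 12–16 h, was 1.93 over the genes that rose, -1.26 over the 13 that fell, and 0.01 over all genes. At least a 2-fold difference was seen for 92.6% of the higher genes and 11 of the lower, and at least a 4-fold difference for 67 of the higher genes. All called genes moved in the called direction in each of the 3 pairs, as 21.5% of the genes tested did upwards and 20.9% downwards. The 3 values at 16–20 h lay wholly above those at 12–16 h for 89.9% of the genes that rose, and wholly below for 9 of the 13 that fell, beside 5.17% and 4.86% of all genes tested (10% in either direction). Since the calls were made on these same 3 pairs, both shares of the called genes largely follow from the selection and are no support.

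The genes that rose took 2.44%, 2.02% and 3.06% of all UMIs at 16–20 h, against 0.915%, 0.792% and 0.950% at 12–16 h. Their median log2 ratio was 1.72, 1.85 and 1.97 in the 3 pairs. Without experiment 10, whose 16–20 h nuclei stood apart, 6.12% of genes were higher and 3.33% lower, and these included every gene called in the full comparison. Keeping only nuclei with at most 10% ribosomal UMIs gave 1.45% higher and 0.127% lower genes, with 96% of the higher and 11 of the 13 lower genes of the full comparison among them. In sums over whole embryos, a larger share of cells of a type and more RNA per cell of that type cannot be told apart.

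**Figure D1:**
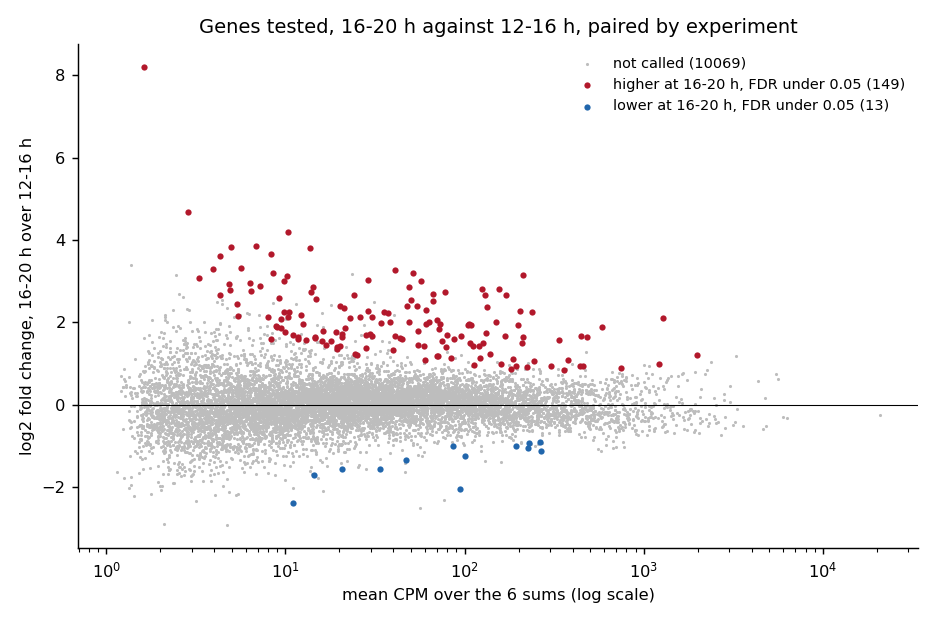
Each point is one of the 10231 genes tested, with its mean level over the 6 sums in UMIs per 1000000 (CPM, log axis) across and its fitted log2 fold change, 16–20 h over 12–16 h, upwards. Red points are the 1.46% of genes higher and blue points the 13 genes lower at an adjusted p under 0.05, and most red points lie at low to middling levels; the highest point, CG34327, had 0 UMIs at 12–16 h, so its plotted height depends on the prior count and is no bound.

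Genes for proteins of the larval cuticle were the list with the most rising members, and they are described after the Vajk genes, whose role is not stated here. The 15 largest rises are those among called genes with the windows wholly apart and a mean of at least 20 CPM (counts per 1000000 UMIs) at 16–20 h. Vajk4, one of these 15, was at 319.5, 419.1 and 393.1 CPM at 16–20 h, against 61.1, 35.4 and 36.5 CPM at 12–16 h (FBgn0050101; 2R, 17408258 to 17410204 in the BDGP6.54 annotation of the dm6 assembly). The lowest 16–20 h sum was thus far above the highest 12–16 h sum. Its mean was 377.2 ± 51.7 CPM at 16–20 h and 44.3 ± 14.5 CPM at 12–16 h (SD, n = 3 each), with a log2 fold change of 3.14 ± 0.27 (SE) and an adjusted p of 0.00142. Vajk1, named here after its values were seen, behaved alike, with 224.9, 382.1 and 269.8 CPM at 16–20 h against 46.8, 42.9 and 48.9 CPM at 12–16 h (log2 fold change 2.66 ± 0.23, adjusted p = 0.00142).

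Among the Cpr proteins, which carry the chitin-binding Rebers and Riddiford domain, 3 were among these 15 rises. Cpr62Bc was at 65.4, 99.8 and 91.2 CPM at 16–20 h, against 9.31, 17.4 and 10.2 CPM at 12–16 h (3L, 1840281 to 1842084), a log2 fold change of 2.85 ± 0.24 with an adjusted p of 0.00142. Cpr65Ea had 110.6, 72 and 40.4 CPM at 16–20 h, against 11.3, 4.26 and 8.06 CPM at 12–16 h (3L, 7086003 to 7086608), a log2 fold change of 3.28 ± 0.33 with an adjusted p of 0.00244. Cpr56F had 66.6, 106.5 and 103.3 CPM at 16–20 h, against 16.8, 4.26 and 9.67 CPM at 12–16 h (2R, 20288371 to 20291945), a log2 fold change of 3.20 ± 0.44 with an adjusted p of 0.00599. In all of these the windows did not overlap, and Cpr65Ea was the only one of the 3 that was lowest in experiment 10 among the 16–20 h sums. Cpr51A stood at a higher level, with 389.6, 210.8 and 170.2 CPM at 16–20 h against 105.9, 71.7 and 63.9 CPM at 12–16 h (log2 fold change 1.67 ± 0.19, adjusted p = 0.00290).

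The Tweedle proteins, a second family of cuticle proteins, included 4 of the same 15 rises. TwdlD was at 234.3, 102.3 and 324.8 CPM at 16–20 h, against 43.5, 19.3 and 27.4 CPM at 12–16 h (3R, 26640025 to 26641054; log2 fold change 2.82 ± 0.27, adjusted p = 0.00179). TwdlM had 314.8, 132.2 and 369.7 CPM at 16–20 h, against 46, 44.9 and 20.4 CPM at 12–16 h (log2 fold change 2.82 ± 0.40, adjusted p = 0.00677). Both were highest at 16–20 h in experiment 10 and lowest at 16–20 h in experiment 3, as were TwdlW and TwdlY. TwdlW stood at 153.5, 61.7 and 194.96 CPM at 16–20 h against 28.4, 14.1 and 16.1 CPM at 12–16 h, and TwdlY at 95.5, 55 and 155.03 CPM against 16.6, 12.1 and 6.45 CPM. The log2 fold changes were 2.73 ± 0.30 for TwdlW and 2.99 ± 0.40 for TwdlY, with adjusted p-values of 0.00290 and 0.00544. TwdlF, named here for its level after its values were seen, reached 998, 392.4 and 1401 CPM at 16–20 h, against 329.9, 155.5 and 234.2 CPM at 12–16 h (log2 fold change 1.88 ± 0.26, adjusted p = 0.00609). Tweedle genes lie in clusters of similar copies, and how the counting treated reads that fit several copies was not stated, so the split of UMIs between them is uncertain.

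Of the cuticle protein families 63 genes had enough counts to test and 28 of them rose, beside 1.46% of all genes tested. None of the 63 fell by edgeR or by DESeq2, and none was lower at an unadjusted p under 0.05, where 44 were higher, beside 6.69% and 8.81% of all genes tested. Their median log2 fold change was 1.75, and 57 of the 63 were above 0. Members near 0 at 12–16 h had enough counts to be tested only with the 16–20 h sums, such as Cpr92F at a mean of 0.746 CPM against 12.9 CPM. How many did so was not counted. Entry by that route favours rises, so these counts and the median may be too high. Of 35 tested Cpr genes 13 rose (median 1.46, range -0.59 to 3.85), of 20 tested Tweedle genes 14 rose (median 2.03, range -1.97 to 2.99), and of 8 tested members of the Lcp, Acp, Ccp84 and other clusters 1 rose, Ccp84Ac. TwdlJ marked the low end of the Tweedle range, with 0.224, 0 and 2.747 CPM at 16–20 h against 2.28, 21.6 and 0 CPM at 12–16 h, a difference that did not pass the test (adjusted p = 0.457). Another 52 members of the families were too low to test, 3 of them with no UMI. In UMIs pooled over the experiments, 34 of them took a higher share at 16–20 h. The pools were not paired, and experiment 10 held 36032867 UMIs at 16–20 h against 1861697 at 12–16 h. The same count was not taken over all untested genes, so the 34 are no support. Without experiment 10, 40 cuticle protein family genes rose, beside 6.12% of all genes tested. Summed over tested and untested members the families held 4909, 2699 and 5025 CPM at 16–20 h, against 1507, 1030.2 and 885 CPM at 12–16 h. The smallest ratio came from experiment 3 and the largest from experiment 10.

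Of the genes that rose, 72 have only a CG or CR identifier and 45 are in one of the 33 gene lists used here. Others of the 15 rises defined above were such unnamed genes. CG13059 was at 68.5, 37.5 and 47 CPM at 16–20 h against 6.46, 9.82 and 3.22 CPM at 12–16 h, CG13041 at 39, 27.3 and 10.02 CPM against 2.47, 3.27 and 0 CPM, and CG13043 at 31.1, 19.5 and 23.8 CPM against 4.84, 1.96 and 3.76 CPM. Their log2 fold changes were 3.04 ± 0.36, 3.81 ± 0.43 and 2.86 ± 0.31, with adjusted p-values of 0.00327, 0.00290 and 0.00290. CG13041, at 0 CPM in experiment 10 at 12–16 h, had enough counts to be tested only with the 16–20 h sums, so its test is no support. CG34461 had 126.3, 96.7 and 121.4 CPM at 16–20 h against 25.5, 12.1 and 18.8 CPM at 12–16 h (2.68 ± 0.24, adjusted p = 0.00142), and CG31626 had 283.9, 163.5 and 206.7 CPM against 31.2, 78.6 and 15.04 CPM (2.67 ± 0.44, adjusted p = 0.0155). CG8157 and CG14095 completed the 15, with log2 fold changes of 2.73 ± 0.43 and 2.66 ± 0.38.

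2 other unnamed genes were singled out after their values were seen. CG34327 had 3.92, 2.06 and 3.75 CPM at 16–20 h, and 0 UMIs in all 3 sums at 12–16 h (X, 17222968 to 17223815). Against the limit of 3 counts that 0 UMIs over the 3 sums allows, its mean CPM was at least 16.7-fold higher at 16–20 h, and this limit covers counting error only. It had enough counts to be tested only through the 16–20 h sums, so its test is no support. CG2962 was the most abundant of the rising CG genes named here, at 2111, 1144 and 3030.2 CPM at 16–20 h against 589.1, 354.6 and 467.9 CPM at 12–16 h (log2 fold change 2.12 ± 0.25, adjusted p = 0.00327).

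**Figure D2:**
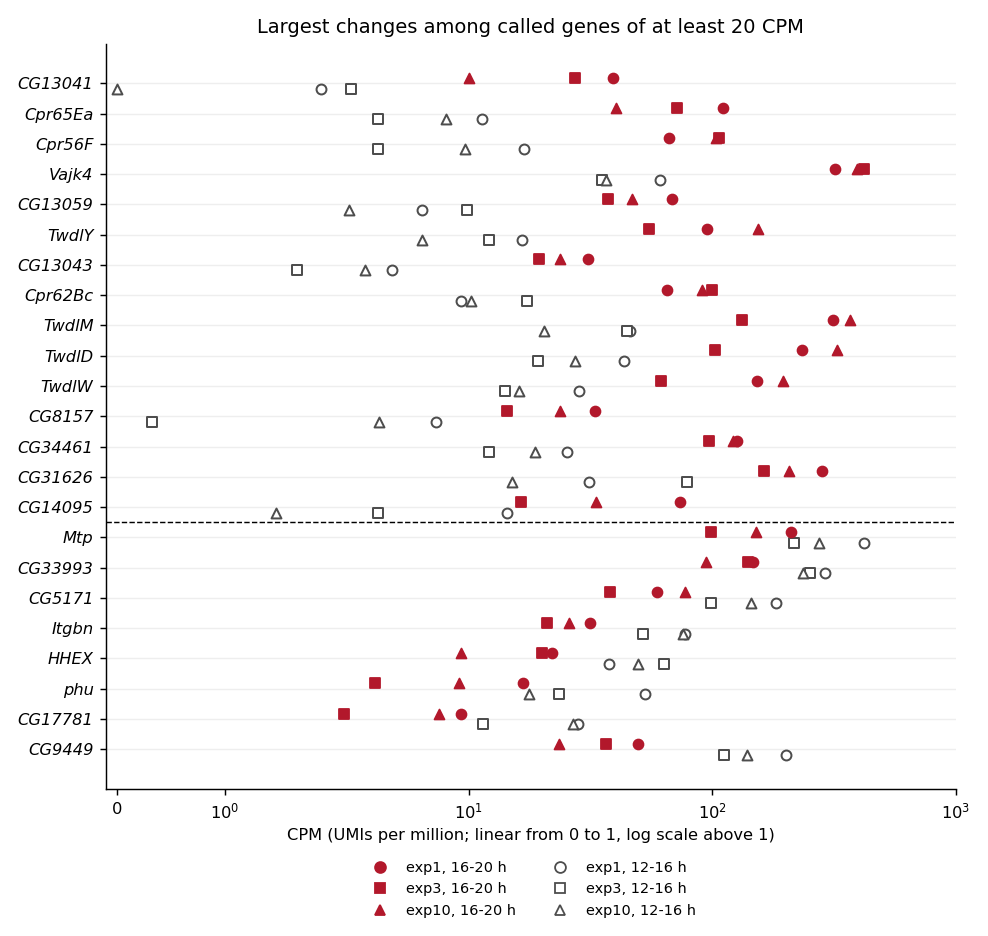
Level of 23 genes in each sum (CPM, linear from 0 to 1 and logarithmic above), with filled red symbols for 16–20 h, open symbols for 12–16 h and one symbol shape per experiment. For the 15 genes above the dashed line all red symbols lie to the right of the open ones, as for Vajk4 at 319.5 to 419.1 CPM against 35.4 to 61.1 CPM, and for the 8 genes below it they lie to the left.

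Chitin and tanning genes moved less than the cuticle proteins. Of 22 genes of chitin synthesis and matrix 3 rose and none fell, beside 1.46% and 0.127% of all genes tested, with a median log2 fold change of 0.23. Obst-E (obst-E), a secreted chitin-binding protein of the obstructor family, was at 110.3, 76.1 and 98.97 CPM at 16–20 h against 21.8, 41.6 and 16.7 CPM at 12–16 h (1.96 ± 0.32, adjusted p = 0.0160). Snsl (snsl), which acts in organising the cuticle, had 89.7, 63.3 and 88.2 CPM at 16–20 h against 36.5, 24.2 and 29.5 CPM at 12–16 h (1.46 ± 0.22, adjusted p = 0.00888). The third, the chitinase Cht6, had 422.8, 496.3 and 269.5 CPM at 16–20 h against 213.5, 243.3 and 169.7 CPM at 12–16 h (0.94 ± 0.18, adjusted p = 0.0315). All 3 were higher in every sum at 16–20 h than in any at 12–16 h. By DESeq2 no member fell either, and none was lower at an unadjusted p under 0.05.

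Of 13 tested tanning and pigment genes 1 rose, beside 1.46% of all genes tested. Ddc, the dopa decarboxylase that makes dopamine, was at 22.8, 10.8 and 18.2 CPM at 16–20 h against 4.46, 5.57 and 1.07 CPM at 12–16 h (log2 fold change 2.24 ± 0.45, adjusted p = 0.0419). Ddc had enough counts to be tested only with the 16–20 h sums, so its test is no support. Ple (ple), the tyrosine hydroxylase one step earlier, had 67.6, 30.9 and 106.3 CPM at 16–20 h against 38.5, 48.8 and 38.1 CPM at 12–16 h and did not pass the test (0.63 ± 0.35, adjusted p = 0.430), and experiment 3 went the other way. Among 13 genes for apical matrix proteins with a zona pellucida domain, zye alone rose, again beside 1.46% of all genes tested. It was at 52, 27.3 and 31.4 CPM at 16–20 h against 9.88, 10.8 and 5.91 CPM at 12–16 h (2.10 ± 0.30, adjusted p = 0.00677). The median of that list was -0.17, and tyn, its member of highest level, had 1599.9, 1785 and 1153 CPM at 16–20 h against 2196, 2644 and 2212 CPM at 12–16 h without passing the test (-0.61, adjusted p = 0.205).

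The Osiris genes, which encode transmembrane proteins of cuticle-secreting epithelia, were at high levels in both windows. None of the 16 tested members was called by edgeR, although 3 were higher and 1 lower at an unadjusted p under 0.05 and 1 was higher by DESeq2. Over all genes tested these shares were 8.81%, 6.69% and 2.41%. Osi6 had 6675, 2584 and 5465 CPM at 16–20 h against 7027, 2482 and 4291 CPM at 12–16 h (log2 fold change 0.15, adjusted p = 0.784), and Osi7 had 3079, 2183 and 3892 CPM against 3092, 2461 and 2175 CPM (0.26, adjusted p = 0.658). In experiments 1 and 3 the Osiris sums thus lay close together, at 14019 and 6609 CPM at 16–20 h against 13573 and 6716 CPM at 12–16 h, while experiment 10 gave 12894 against 8730 CPM.

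Of 19 ecdysone receptor and response genes 2 rose and none fell by edgeR, beside 1.46% and 0.127% of all genes tested. The median was -0.13. By DESeq2 none fell, and 2 were lower at an unadjusted p under 0.05, beside 6.69% of all genes tested. Hr38, an orphan nuclear receptor of the NR4A type, was at 23.99, 43.2 and 8.80 CPM at 16–20 h against 3.32, 6.22 and 3.22 CPM at 12–16 h (2.57 ± 0.35, adjusted p = 0.00599). Eip74EF, an ETS transcription factor induced by ecdysone, had 137.3, 255.6 and 79.98 CPM at 16–20 h against 38.5, 97.3 and 37.1 CPM at 12–16 h (1.5 ± 0.21, adjusted p = 0.00614). Both were highest in experiment 3 and lowest in experiment 10 at 16–20 h, and the Eip74EF values of the 2 windows overlapped across experiments. EcR, the ecdysone receptor itself, had 1089.6, 2071 and 845 CPM at 16–20 h against 1364, 2627 and 2042 CPM at 12–16 h and did not pass the test (-0.60, adjusted p = 0.269); it was named after its values were seen.

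Among sarcomere genes, 5 of 29 tested members rose, beside 1.46% of all genes tested, with log2 fold changes between 0.90 and 1.63. None fell by edgeR or by DESeq2, and none was lower at an unadjusted p under 0.05, where 13 were higher, beside 6.69% and 8.81% of all genes tested. The median log2 fold change was 0.46 and 24 members were above 0. Act87E, a muscle actin, was at 237.8, 280.8 and 429.7 CPM at 16–20 h against 98.7, 69.4 and 150.9 CPM at 12–16 h (1.63 ± 0.21, adjusted p = 0.00460), and Act57B, the more abundant muscle actin, at 1885, 1919.7 and 4524 CPM against 910.1, 938 and 1722 CPM (1.2 ± 0.21, adjusted p = 0.0201). Reads of these near-identical actins may be split between them by the counting, so their individual values are uncertain.

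Tm2, a tropomyosin, had 457.5, 488.03 and 794 CPM at 16–20 h against 253.2, 309.5 and 354.5 CPM at 12–16 h (0.93 ± 0.19, adjusted p = 0.0396). Mlc2, the regulatory light chain of muscle myosin, had 1298, 1072 and 2489.8 CPM at 16–20 h against 696, 613.3 and 1169 CPM at 12–16 h (0.97 ± 0.19, adjusted p = 0.0374), and Prm, paramyosin, had 759.8, 1181 and 931 CPM against 398.6, 579.3 and 608.05 CPM (0.90 ± 0.19, adjusted p = 0.0471). Each pair went up, but the Mlc2 value at 16–20 h in experiment 3 lay below that at 12–16 h in experiment 10. Mhc, the myosin heavy chain, did not pass the test, with 2853, 4698 and 2905 CPM at 16–20 h against 2062, 3205 and 2499 CPM at 12–16 h (0.46, adjusted p = 0.336). Mhc and Prm were named after their values were seen. The projectin gene bt, one of the 5 genes of highest level at 16–20 h, had 3068, 11995 and 1753 CPM at 16–20 h against 1945, 4801 and 2334 CPM at 12–16 h, and its pairs did not agree in direction (0.57, adjusted p = 0.430). Summed, the sarcomere genes held 23630, 41388 and 24851 CPM at 16–20 h against 16618, 24189 and 20545 CPM at 12–16 h. These calls depended on the libraries: 1 sarcomere gene was called without experiment 1, 3 without experiment 3 and 19 without experiment 10. Over all genes tested, 1.34%, 2.63% and 6.12% were called higher in these fits.

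Single members rose in the lists of other tissues, beside 1.46% of all genes tested. Eaat1, the glutamate transporter of glia, was the only one of 23 glial genes called, at 12.6, 18 and 13.9 CPM at 16–20 h against 4.46, 4.91 and 2.69 CPM at 12–16 h (1.86 ± 0.34, adjusted p = 0.0261). Ppk (ppk), a sodium channel subunit of sensory neurons, was the only one of 14 sensory genes called, at 17.2, 20.1 and 5.33 CPM at 16–20 h against 5.13, 3.93 and 2.15 CPM at 12–16 h (1.89 ± 0.36, adjusted p = 0.0315). Both lists had medians near that of all genes, at 0.17 and 0.14.

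Of 32 tested midgut and digestion genes 3 rose, all digestive enzymes, beside 1.46% of all genes tested. The maltase gene Mal-A1 was at 39.6, 20.1 and 15.2 CPM at 16–20 h against 12.6, 3.60 and 6.45 CPM at 12–16 h (1.78 ± 0.31, adjusted p = 0.0219). Its mean over the experiments was 27.8, 7.56, 38.7 and 24.9 CPM at 10–14, 12–16, 14–18 and 16–20 h. Its mean at 12–16 h was thus the lowest of these, and that at 16–20 h was below those at 10–14 and 14–18 h. Jon65Aiv, a serine protease gene of the Jonah family, had 58.4, 23.1 and 7.16 CPM at 16–20 h against 10.4, 13.4 and 2.15 CPM at 12–16 h (1.77 ± 0.37, adjusted p = 0.0453). Its neighbour Jon65Ai had 34.4, 10.3 and 8.08 CPM at 16–20 h against 11.8, 3.60 and 2.15 CPM at 12–16 h (1.64 ± 0.32, adjusted p = 0.0320). Each pair of both proteases went up although their windows overlapped, the level being lowest in experiment 10 in both windows. Unlike Mal-A1, both had their highest mean of these windows at 16–20 h. The median of the 32 genes was 0.34 while the summed level of the list was lower at 16–20 h in all 3 pairs, with log2 ratios of -0.01, -0.42 and -0.65, so that the median and the sum had opposite signs. None of the 32 was called lower by edgeR, 1 was by DESeq2 (0.929% of all genes), and 6 were lower and 6 higher at an unadjusted p under 0.05, beside 6.69% and 8.81% of all genes tested. None of the 3 rises was called in nuclei of at least 400 UMIs.

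4 further genes that rose were chosen after their values were seen. Snu (snu), an ABC transporter needed for the cuticle barrier, was at 193.9, 264.8 and 168.8 CPM at 16–20 h against 101.6, 125.1 and 97.8 CPM at 12–16 h (0.98, adjusted p = 0.0263). Muc91C, a gene of the mucin group, had 211.8, 230.4 and 267.8 CPM at 16–20 h against 76.7, 48.1 and 58.01 CPM at 12–16 h (2.0 ± 0.23, adjusted p = 0.00290). Prc (prc), the heart matrix protein pericardin, had 216.03, 167.1 and 170.4 CPM at 16–20 h against 87.8, 64.8 and 51.6 CPM at 12–16 h (1.5, adjusted p = 0.00507). LamC, an A-type lamin of the nuclear envelope, had 274.3, 251.98 and 467.3 CPM at 16–20 h against 151.2, 139.2 and 183.7 CPM at 12–16 h (1.06, adjusted p = 0.0235). In all of them the 3 values at 16–20 h exceeded the 3 at 12–16 h.

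Of the 13 genes that fell only Mtp was in one of the lists, and 7 of them have only a CG identifier. CG9449 was at 49.8, 36.5 and 23.6 CPM at 16–20 h against 201.5, 112.3 and 139.7 CPM at 12–16 h (3L, 19492053 to 19497723; log2 fold change -2.04 ± 0.23, adjusted p = 0.00299). HHEX, a homeobox gene, had 22.1, 20.1 and 9.27 CPM at 16–20 h against 37.6, 63.2 and 49.4 CPM at 12–16 h (-1.55 ± 0.31, adjusted p = 0.0407). Itgbn, the beta-nu integrin, had 31.6, 21.1 and 25.7 CPM at 16–20 h against 77.2, 52.1 and 75.7 CPM at 12–16 h (-1.34 ± 0.22, adjusted p = 0.0149). In these 3 the windows were wholly apart.

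Mtp, the microsomal transfer protein that loads lipid onto apolipophorin in fat body, was the only called gene among 21 tested fat body genes. Of all genes tested 0.127% were called lower. Mtp was at 210.99, 99.3 and 152.1 CPM at 16–20 h against 419.04, 216.1 and 275.02 CPM at 12–16 h (-0.94 ± 0.18, adjusted p = 0.0275). Apolpp (apolpp), which encodes apolipophorin and was the gene of highest level at 16–20 h, had 16948, 41849 and 5172 CPM at 16–20 h against 19109, 30824 and 11408 CPM at 12–16 h, with pairs of both signs (-0.25, adjusted p = 0.773). CG17781, phu, CG5171 and CG33993 were the others with the windows wholly apart and at least 20 CPM at 12–16 h, with log2 fold changes of -1.70, -1.56, -1.26 and -1.01 and adjusted p-values between 0.0160 and 0.0396. The cytochrome P450 gene Cyp6d5 and the immunoglobulin-domain gene Ama also fell, in every pair but with overlapping windows, and were named after their values were seen. Ama was at 250.9, 122.9 and 156.1 CPM at 16–20 h against 531.01, 205.3 and 313.2 CPM at 12–16 h (-0.90, adjusted p = 0.0378), and Cyp6d5 at 255.4, 157.4 and 89.6 CPM against 550.6, 238.7 and 311.01 CPM (-1.13, adjusted p = 0.0443).

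Most other gene lists had no called member. Of the 33 lists, 10 had a called member, and no gene of the other 23 was called by edgeR, against 5 higher and 3 lower by DESeq2 and 74 higher and 34 lower at an unadjusted p under 0.05. As shares of the genes tested in those 23 lists these were 1.08% and 0.649% by DESeq2, beside 2.41% and 0.929% of all genes, and 16.02% and 7.36% at the unadjusted p, beside 8.81% and 6.69% of all genes. Those lists were picked for having no edgeR call on the same sums. Their DESeq2 shares were lowered by that choice and say nothing about the lists. The medians of those 23 lists lay between -0.32 and 0.63. Of 41 synapse genes 31 were above 0 (median 0.23), yet their summed level was higher at 16–20 h in experiments 1 and 3 and lower in experiment 10, with log2 ratios of 0.33, 0.42 and -0.44. The pan-neuronal gene elav had 839, 1173 and 1057 CPM at 16–20 h against 697, 1077 and 892 CPM at 12–16 h (0.25, adjusted p = 0.546).

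Of 29 axon guidance genes 27 were below 0 and 19 were lower in all 3 pairs, beside 20.9% of all genes tested. However, 2 were lower at an unadjusted p under 0.05 in edgeR, beside 6.69% of all genes tested, and none was called by edgeR or DESeq2. Fas2, a neural adhesion molecule, had 2450.4, 2560.5 and 1512 CPM at 16–20 h against 2872, 2793 and 2709 CPM at 12–16 h, apart but short of the threshold (-0.35, adjusted p = 0.485). Of 85 ribosomal protein genes 80 were above 0 and 52 were higher in all 3 pairs, beside 21.5% of all genes tested. At an unadjusted p under 0.05 in edgeR 30 were higher, beside 8.81% of all genes tested, and none was called by edgeR or DESeq2. The log2 ratios of their summed level were 0.39, 0.13 and 0.78. The differences in the ribosomal share of the nuclei had the same order of experiments. Both measures count ribosomal protein UMIs of the same nuclei, so that order is no separate observation. The 19 tested genes of the mitochondrial genome had the highest median of these lists, 0.63, with 13 higher in all 3 pairs, beside 21.5% of all genes tested. At an unadjusted p under 0.05 in edgeR 11 were higher, and DESeq2 called 3 higher, beside 8.81% and 2.41% of all genes tested. The dosage compensation RNA roX1 was at 4829.6, 4171 and 2195 CPM at 16–20 h against 5435, 5139 and 6139.6 CPM at 12–16 h (lncRNA:roX1; -0.60, adjusted p = 0.350). Amnioserosa genes and dosage compensation genes had medians of 0.04 and 0.09 while their sums were lower at 16–20 h in every pair.

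The genes of highest level did not pass the test. Beside apolpp and bt, eEF1alpha1, a translation elongation factor, had 6239.8, 1999 and 13408 CPM at 16–20 h against 4245, 1871 and 4947 CPM at 12–16 h (0.74, adjusted p = 0.262). The mitochondrial large ribosomal RNA mt:lrRNA had 7374, 3508 and 9457 CPM at 16–20 h against 5419, 2431 and 5471 CPM at 12–16 h (0.63, adjusted p = 0.231). The heat-inducible RNA lncRNA:Hsromega had 4517, 11260.1 and 2026 CPM at 16–20 h against 4043, 10684 and 5222 CPM at 12–16 h (-0.32, adjusted p = 0.667). In eEF1alpha1 and mt:lrRNA each pair was higher at 16–20 h while the windows overlapped across experiments.

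**Figure D3:**
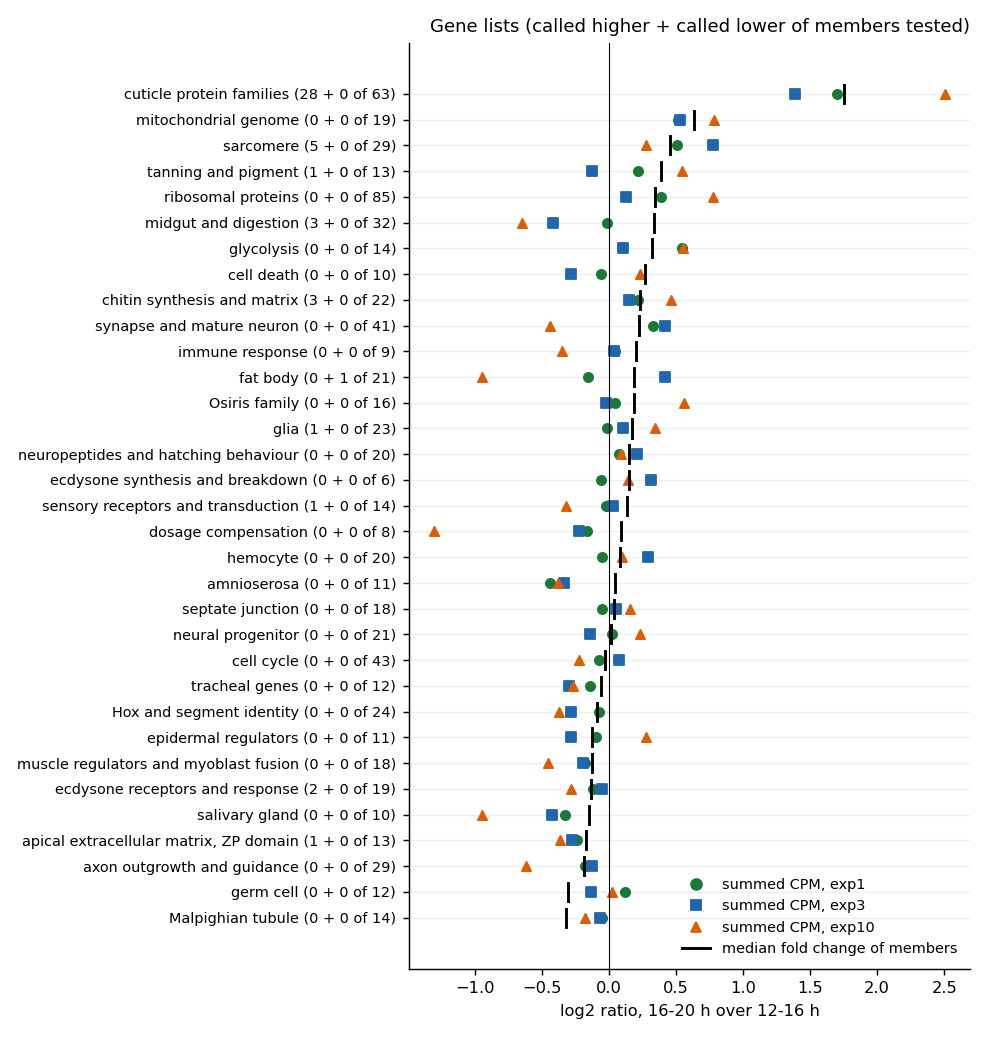
For each of 33 gene lists, the log2 ratio of its summed level, 16–20 h over 12–16 h, in each experiment (3 symbols) and the median log2 fold change of its tested members (black bar), with the number of members called beside the name. The cuticle protein families stand farthest right, with ratios of 1.70, 1.39 and 2.51 and a median of 1.75, and most other lists lie near 0.

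The UMIs of the cuticle families were spread over many nuclei. After each nucleus was thinned to 250 UMIs, which left none out, 37.5%, 20.0% and 63.1% of nuclei at 16–20 h had at least 1 cuticle family UMI, against 14.9%, 9.12% and 11.7% at 12–16 h. Without thinning the shares were 44.8%, 24.8% and 77.4% at 16–20 h against 19.1%, 12.3% and 15.9% at 12–16 h. Muscle and nerve cells should lack cuticle transcripts, so the shares were also taken in nuclei with at least 5 UMIs of the sarcomere list and in nuclei with at least 5 of the synapse list. In the sarcomere stratum they were 42.8%, 28.3% and 65.1% at 16–20 h against 15.9%, 11.7% and 13.8% at 12–16 h, above those over all nuclei in all 6 sums. That stratum held 7826 of 18779, 1589 of 3916 and 46513 of 56990 nuclei at 16–20 h. At 12–16 h it held 8536 of 25955, 2545 of 6773 and 1445 of 4411. In experiment 10 at 16–20 h it thus marked no muscle class, and in the other sums it was not shown to mark one. In the synapse stratum the shares were 35.5%, 21.5% and 58.7% at 16–20 h against 13.05%, 8.46% and 7.85% at 12–16 h, below those over all nuclei in every sum but that of experiment 3 at 16–20 h. The median nucleus was deeper than over all nuclei by 51, 65 and 44 UMIs at 16–20 h and 36, 39 and 41 UMIs at 12–16 h in the sarcomere stratum, and in the synapse stratum by between 24 and 48 UMIs in 5 sums, while in experiment 10 at 16–20 h its median was 726 UMIs. Since cuticle UMIs were found in both strata, the share of nuclei with a UMI does not show which nuclei express the genes. In the 16–20 h nuclei of experiment 10 a sarcomere UMI was found in 97.2% of nuclei, against 73.8%, 69.9% and 71.4% in the 3 collections at 12–16 h and 79.2% and 70.7% in the other 2 at 16–20 h. A UMI of CG9449 was found in 0.959%, 0.613% and 0.454% of nuclei at 16–20 h, against 2.55%, 1.64% and 1.75% at 12–16 h. In the sarcomere stratum its shares were 0.371%, 0.252% and 0.445% at 16–20 h, against 0.902%, 0.550% and 0.692% at 12–16 h, below those over all nuclei and nearly level with them in experiment 10 at 16–20 h.

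The same 3 experiments also sampled the neighbouring windows, which overlap in age with the ones compared. The cuticle families summed to 595.8, 1507, 1329 and 4909 CPM at 10–14, 12–16, 14–18 and 16–20 h in experiment 1, to 705, 1030.2, 424.95 and 2699 CPM in experiment 3, and to 434.6, 885, 695 and 5025 CPM in experiment 10. In these sums the 14–18 h collections were therefore not intermediate: in all 3 experiments they were below the 12–16 h collections. Vajk4 was likewise lower at 14–18 h than at 12–16 h in all 3 experiments, with 16.6, 61.1, 41.3 and 319.5 CPM in experiment 1, 9.91, 35.4, 22.5 and 419.1 CPM in experiment 3, and 6.86, 36.5, 33.1 and 393.1 CPM in experiment 10. The Osiris genes dipped too, at 6674, 13573, 6617 and 14019 CPM in experiment 1, and the sarcomere sums were also lower at 14–18 h than at 12–16 h in every experiment.

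Over the genes that rose, the 14–18 h value was below the 12–16 h value in all 3 experiments for 36.9%, between the 2 windows in all 3 for 6.04%, and between them in none for 40.9%. At 16–20 h, 91.3% of them exceeded the 14–18 h value in all 3 experiments. Already at 12–16 h, 61.7% were higher than at 10–14 h in every experiment. Of the 13 genes that fell, 9 had a 14–18 h value between the others in all 3 experiments. CG9449 was at 467.5, 201.5, 89.2 and 49.8 CPM over the 4 windows in experiment 1, 234.3, 112.3, 51.9 and 36.5 CPM in experiment 3, and 203.8, 139.7, 39.3 and 23.6 CPM in experiment 10. These counts describe genes chosen on the 12–16 and 16–20 h values and carry no test. The median inferred age of the 14–18 h nuclei was 15.1, 15.1 and 15.6 h, above that of the 12–16 h nuclei in each experiment. The 14–18 h neural progenitor sums were 4591, 5467 and 5205 CPM, against 2899, 3202 and 2885 CPM at 12–16 h and 2941, 2909 and 3397 CPM at 16–20 h. Cell cycle sums were 4769, 4098 and 7229 CPM, against 2921, 3010 and 3888 CPM at 12–16 h and 2781, 3174 and 3328 CPM at 16–20 h. Both lists stood higher still at 6–10 h in every experiment. Whether the make-up of the 14–18 h collections is behind the dip was not tested.

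**Figure D4:**
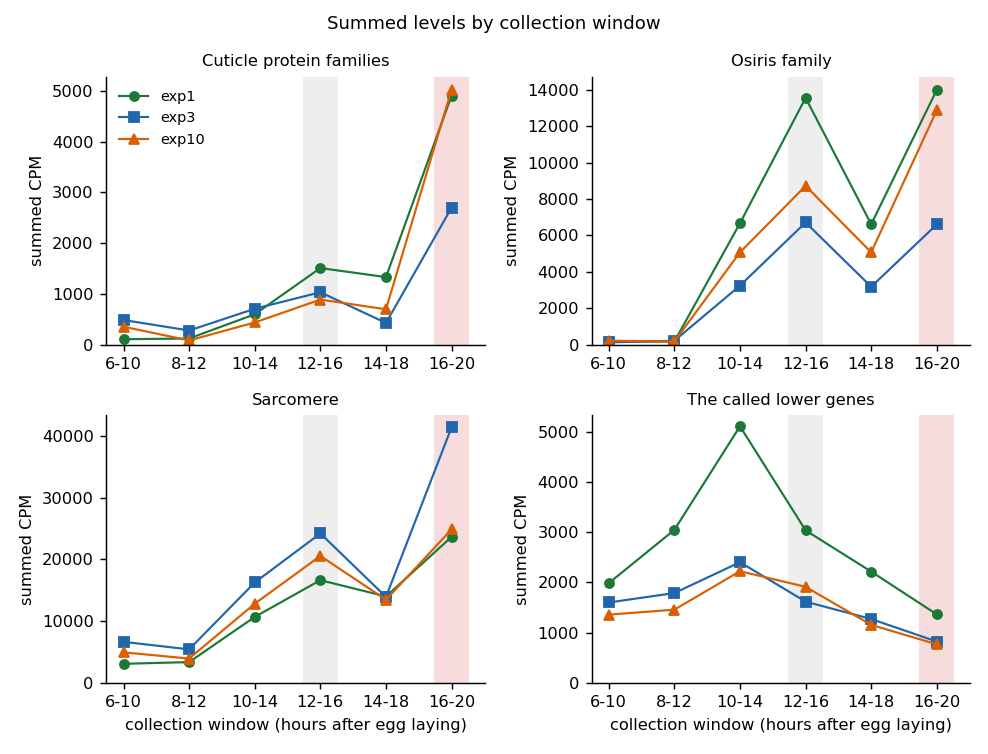
Summed level (CPM) of the cuticle protein families, the Osiris genes, the sarcomere genes and the 13 genes called lower in each collection window from 6–10 h to 16–20 h, one line per experiment, with the 12–16 h window shaded grey and the 16–20 h window shaded red. The cuticle sums are highest at 16–20 h, between 2699 and 5025 CPM, and dip at 14–18 h, whereas the genes called lower decline from 10–14 h onwards.

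Within each window the levels varied with the inferred age of the nuclei. This age was computed by the authors from the same expression values, so what follows is a description without a test. In nuclei placed at 15–16 h the cuticle sums were 2587, 1416 and 2113 CPM in the 16–20 h collections against 3176, 1484 and 1499 CPM in the 12–16 h collections. In nuclei placed at 16–17 h they were 5202, 2839 and 3444 CPM against 6810, 3650 and 2655 CPM. In these 2 bins the 16–20 h nuclei were thus the lower ones in experiments 1 and 3 and the higher ones in experiment 10. In the younger bins from 12 to 15 h they were the higher ones throughout in experiments 1 and 10, and in experiment 3 only at 13–14 h. For the 13 genes called lower the windows differed at the young end, where nuclei placed at 12–13 h had 1269, 1005 and 982 CPM in the 16–20 h collections against 4856, 2976 and 3483 CPM in the 12–16 h collections. At 15–16 h they stood closer, at 1849, 997 and 886 CPM against 1652, 1181 and 1190 CPM.

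**Figure D5:**
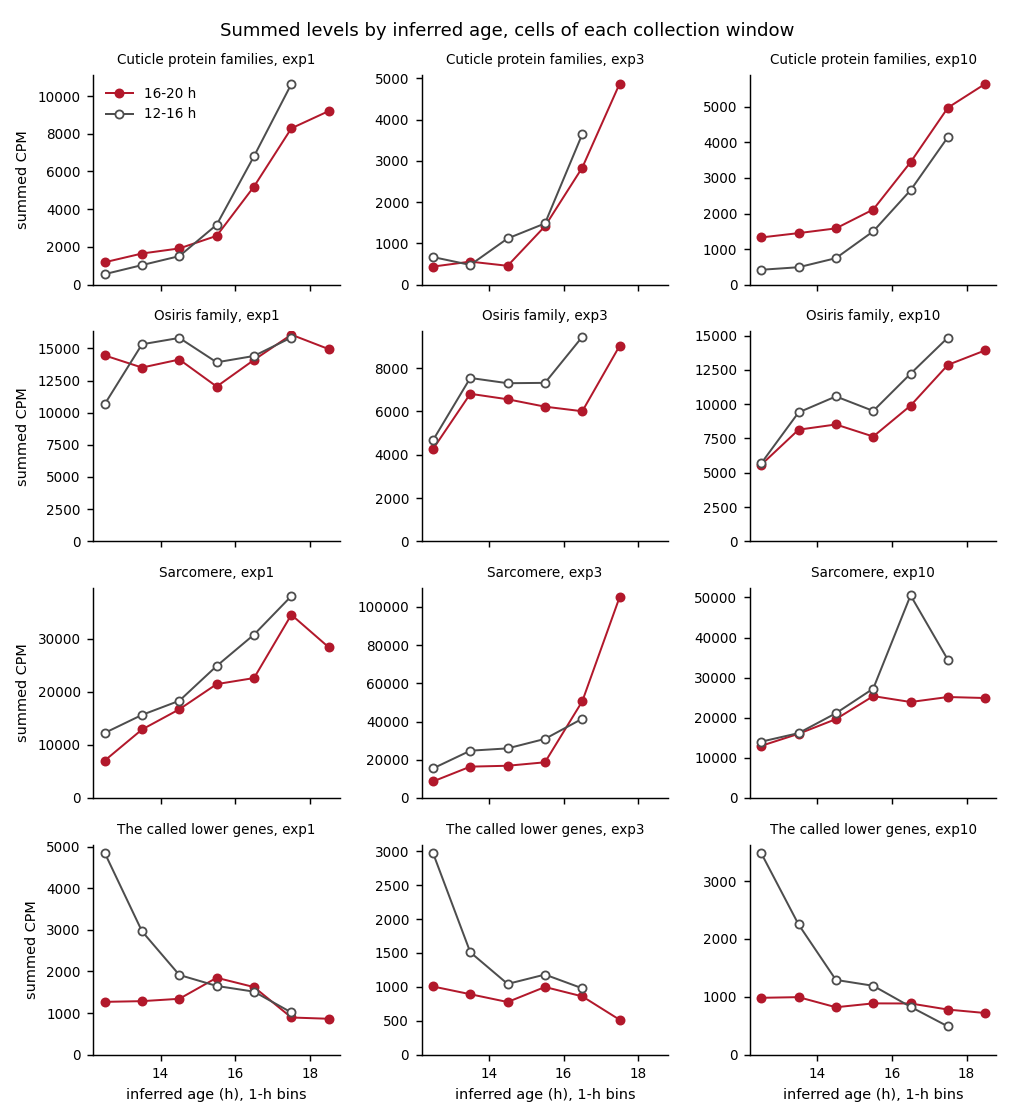
Summed level (CPM) over 1-h bins of inferred age for 4 gene sets in the 3 experiments, with filled red symbols for nuclei of the 16–20 h collections and open symbols for nuclei of the 12–16 h collections. Cuticle levels climb with inferred age in both collections, for example to 5202 and 6810 CPM at 16–17 h in experiment 1, and the genes called lower are highest in the young nuclei of the 12–16 h collections.

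Many of the genes that rose lie close together in the genome. Of those with a unique position in the BDGP6.54 annotation, 59 (41.3%) were within 50 kb of another gene that rose, against 1218 of 9257 tested genes (13.2%). The longest run held 9 rising genes in 78.3 kb of 3L (16281132 to 16359428), namely CG13049, CG13048, CG13043, CG13063, CG13041, CG13060, CG13059, CG4998 and ringer. Of the 16 tested genes inside it 13 had a log2 fold change above 0. These 13 include the 9 rising genes that define the run, so the count is no support for it. On 3R, TwdlF, TwdlG and TwdlV were the only tested genes between 4247020 and 4255833, and TwdlM, TwdlL and TwdlD were 3 of 9 tested between 26619118 and 26641054. Of the genes that rose 47.2% had a coding length of 300 codons or fewer, against 25.9% of the tested genes, and 43.4% against 28.6% had at most 2 exons. These shares are descriptions, and no test was run on them.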

How the data were processed

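Whole embryos were flash-frozen and their nuclei profiled by sci-RNA-seq3. The authors mapped reads with STAR 2.7.3a to dm6 (BDGP6, per the submitters' processing notes) and deposited whole-number UMI counts per gene and nucleus, with a cell table giving experiment, window, the percent of UMIs on ribosomal protein and mitochondrial genes that the authors computed, and an age in hours that the authors inferred from expression. They had removed doublets and nuclei of few UMIs; the annotation used for counting is not stated in the sources read. The methods state a 10% limit on ribosomal UMIs, yet 17.1% of the nuclei used here exceed it, 31.1% of the 16–20 h nuclei of experiment 10 and at most 6.91% of those of the other 5 sums.

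Counts were summed per experiment and window. Genes passing edgeR's filterByExpr (10231 of 23932) were fitted with a quasi-likelihood model of experiment and window with TMM scaling (R 4.3.3, edgeR 4.0.16, limma 3.58.1), with Benjamini-Hochberg adjustment and a threshold of 0.05. At this threshold 149 genes were higher and 13 lower at 16–20 h, and 1585 had an unadjusted p under 0.05. CPM are counts per 1000000 summed UMIs, before TMM; fold changes are after it. Experiment served as the pair because both windows were processed in one experiment. Deviations from window means correlated at 0.465, 0.567 and 0.377 within experiments and at most 0.186 between them. Centring each window on its own experiments pushes the values between experiments down, so this contrast is partly built in. On simulated counts the fit recovered 45% of 2-fold and 97% of 4-fold changes (10001 genes run). DESeq2 1.42.0 was an alternative. Tables and figures used Python 3.11.15, NumPy 2.4.6, SciPy 1.17.1, pandas 2.3.3 and matplotlib 3.10.9. No barcode occurred in both windows of one experiment, while 1316 of 23716 cell barcodes, read after the well index, occurred in more than one experiment.

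The members and the 33 gene lists were chosen with earlier results of these data known. The text names genes called and with the windows apart, at 20 CPM or more on average in the higher window (up to the 15 largest changes each way), up to 4 called members per list and direction or else up to 2 uncalled members of highest level, and the 5 genes of highest level at 16–20 h; other genes are said to have been chosen later. 12 alternatives were run, among them nuclei of at least 400 UMIs, 1 of them (at most 10% ribosomal UMIs) added after the data were seen. No sequence is shown, since no genome or sequence table was used here.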

Additional observations from a re-analysis of the deposited data

How the results depend on the processing

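The direction of every called gene was kept under all 12 alternatives, except that 98.7% of the higher genes kept it when only nuclei with an inferred age inside their window were used. These genes moved 1 way in every pair and the alternatives reuse the same UMIs, so the kept direction is no support. The share of genes called was less stable. Without the pairing by experiment as a block, 0.195% of genes were higher and 0 lower, 4.59% had an unadjusted p under 0.05, and 8 cuticle and 0 sarcomere genes were called. Fitting all windows together gave 0.596% higher genes, and DESeq2 gave 2.41% higher and 0.929% lower. No filter on low counts (18996 genes tested) gave 2.43% and 0.711%, and nuclei of at least 400 UMIs gave 0.929% higher. Nuclei with an inferred age inside their window gave 5.58% and 3.13%, and that age was made from the same expression values. Many calls of the full comparison were lost in some of these fits. Without the block 13.4% of the higher and 0 of the 13 lower genes were still called. With all windows in the fit 33.6% and 5 were, and in nuclei of at least 400 UMIs 60.4% and 7. Leaving out one experiment in turn gave between 1.34% and 6.12% higher and between 0.567% and 3.33% lower genes; the cause was not tested. Without experiment 1, 70.5% of the higher and 4 of the 13 lower genes were still called, and Act57B, Cht6, Mlc2, Mtp, Tm2, Jon65Ai, Jon65Aiv, ppk, phu, CG17781, CG33993 and CG5171 were not. Without experiment 3, 92.6% and 10 were still called, and Cht6, Mlc2 and Mtp were not; without experiment 10 all were. Cuticle calls numbered 14 with all windows in the fit, 43 without the filter or without experiment 3, and 45 with the age inside the window. The shares of all genes called higher in these fits were 0.596%, 2.43%, 2.63% and 5.58%. The median log2 fold change over genes tested was 0.0459 without the block, 0.0542 with all windows, -0.0280 without TMM, 0.0938 without the filter, and between -0.0176 and 0.0628 with one experiment left out; the cause was not tested. Depth limits the comparison for genes of few UMIs, since the shallowest sum held 1861697 UMIs and 13701 genes of the matrix were not tested.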
